A study of Macaca mulatta with 2 samples.

Results

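The 48 genes described here encode the subunits of the receptors for glutamate, GABA and glycine in the rhesus macaque (Macaca mulatta). They were taken by symbol from the 26533 features of the count tables, of which 16678 carried a gene name. Every symbol that starts with GRIA, GRIK, GRM, GABR or GLRA was included, together with GLRB and the GRIN1, GRIN2 and GRIN3 genes. By family they were 4 AMPA, 5 kainate, 7 NMDA and 8 metabotropic glutamate receptor genes, 16 GABA-A subunit genes, 3 GABA rho subunit genes and 5 glycine receptor genes.

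Glutamate is the transmitter that photoreceptors release onto bipolar and horizontal cells, and that bipolar cells pass on to amacrine and ganglion cells. AMPA, kainate and NMDA receptors are channels that glutamate opens, whereas metabotropic receptors act through G proteins, and mGluR6 (GRM6) is the receptor by which ON bipolar cells read the photoreceptor signal. GABA and glycine come mainly from amacrine cells and act on chloride channels, among them the GABA rho channels known from bipolar cell terminals.

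The 2 spatial transcriptomes came from uninjected posterior eyecup of the right eyes of 2 male wild-type macaques, NHP1 at 5 years and NHP2 at 6 years of age, 1 section of 10 µm from a 4 mm punch for each animal. Elsewhere in the same eye NHP1 had received AAV2-CAG-hRPE65, and NHP2 had received AAV8-GRK1-mScarlet and AAV8-GRK1-hRPGR, and both eyes had been given subtenon triamcinolone at surgery. A Visium spot is 55 µm wide and tags each captured molecule with a unique molecular identifier (UMI), so that a spot held several cells and often more than 1 retinal layer. Animal, vector, age, depth and the amount of retina on the slide differed together between the sections and cannot be told apart.

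NHP1 held 1484784 UMIs in 534 tissue spots, and NHP2 held 805726 UMIs in 470 tissue spots. A tissue spot with at least 200 UMIs was given the retinal layer whose marker list stood highest over its section mean, and none of the lists contained a receptor gene. In NHP1 this gave 71 ganglion cell, 66 inner nuclear, 120 photoreceptor, 56 retinal pigment epithelium (RPE), 53 choroid and 119 sclera spots, and in NHP2 it gave 13, 16, 25, 28, 62 and 147. The ganglion cell list stood at 71.7 UMIs per 10000 in the ganglion cell spots of NHP1 against 19.3 in its inner nuclear spots, and at 72.5 against 17.7 in NHP2. The photoreceptor list reached 322 and 353 UMIs per 10000 in photoreceptor spots, yet was also present at 58.5 and 41.8 in ganglion cell spots, so the layers overlapped. Between 3.57% and 30.8% of the spots of a layer lay near a cut between layers.

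Of the 48 receptor genes, 31 had at least 1 UMI in tissue, 28 in NHP1 and 23 in NHP2, and 14 had at least 20 UMIs over both sections. The 17 genes without a UMI were GRIK2, GRIK3, GRM5, GRM7, GRIN2B, GRIN2D, GRIN3B, GABRA2, GABRA4, GABRA5, GABRE, GABRG1, GABRP, GABRQ, GLRA1, GLRA3 and GLRA4. At this depth a count of 0 leaves room for a level of 0.0202 UMIs per 10000 in the tissue of NHP1, and of 0.0372 in that of NHP2. The share of genes at 0 was 35.4% among receptor genes and 25.8% among all named features, and the share with at least 20 UMIs was 29.2% against 48.9%. The receptor genes summed to 1177 UMIs in NHP1, which is 7.93 per 10000 (95% Poisson interval 7.48 to 8.39), and to 570 in NHP2, which is 7.07 per 10000 (6.51 to 7.68). With 1 section per animal no test was made, and all intervals cover counting error only.

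**Figure D1:**
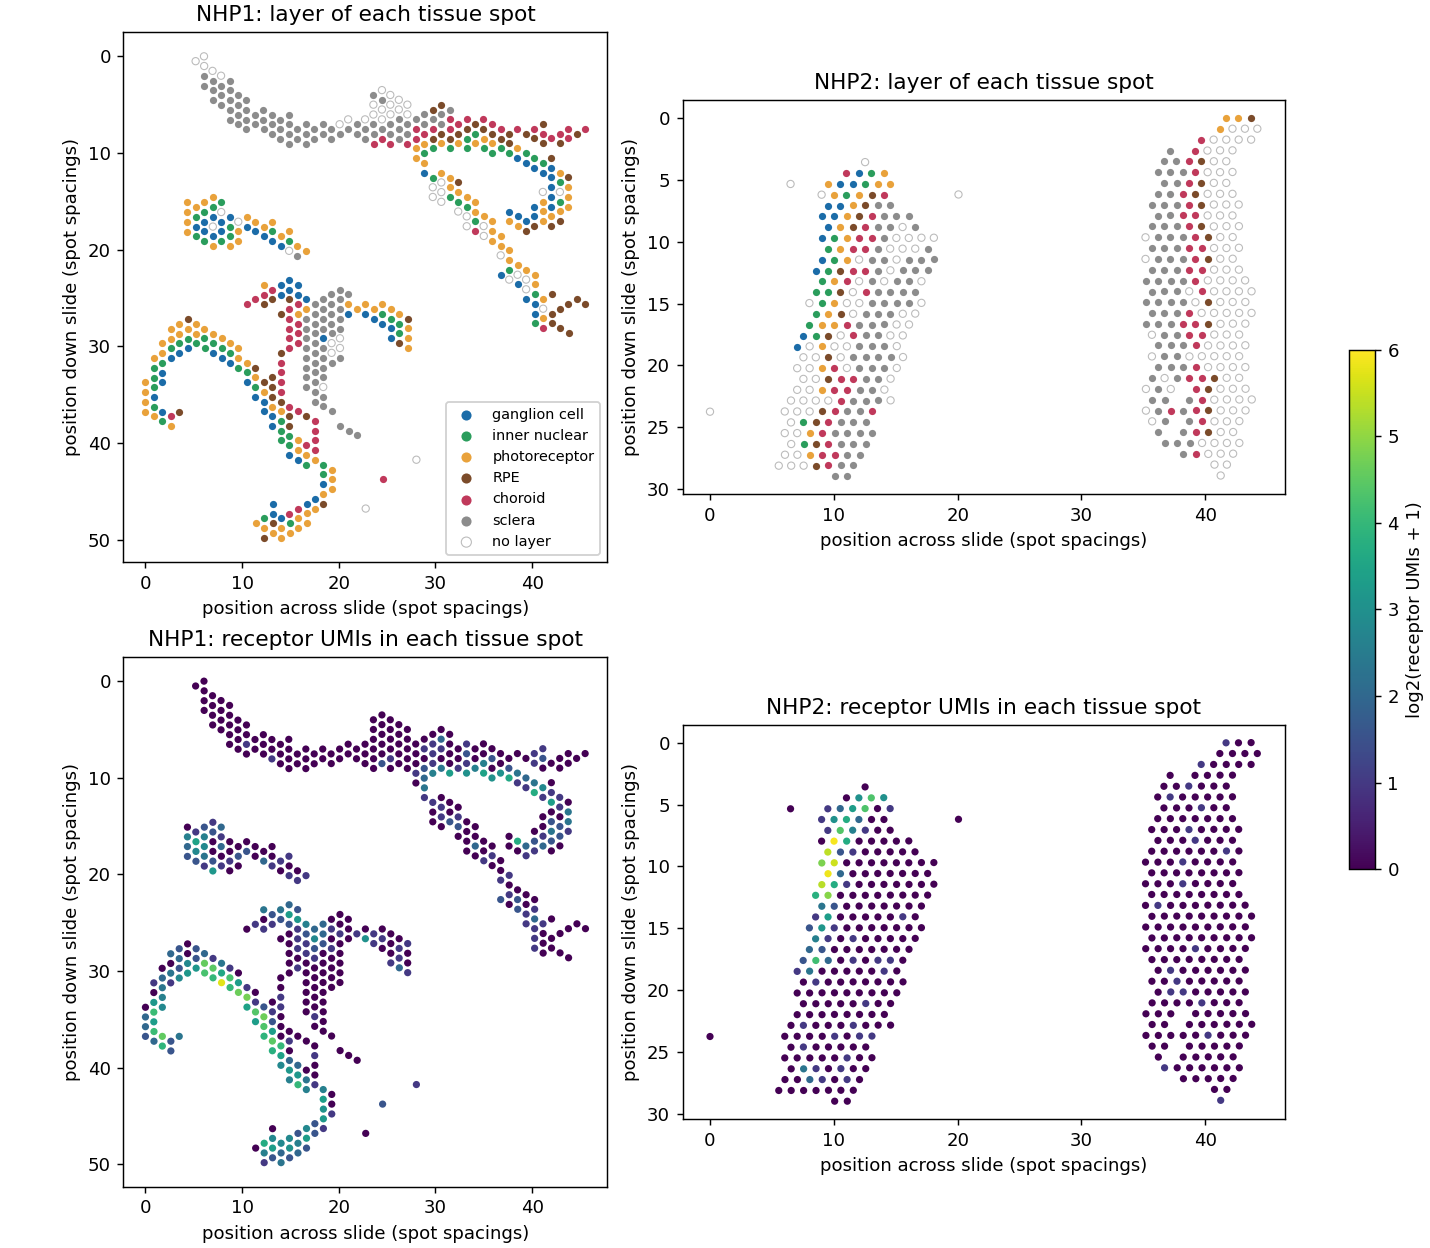
Layer of each tissue spot (upper maps) and receptor UMIs in the same spots as log2(UMIs + 1) (lower maps), with both axes in spot spacings. The spots rich in receptor UMIs follow the green and blue bands of inner nuclear and ganglion cell spots, and the spot with the most held 52 receptor UMIs in NHP1 and 59 in NHP2.

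The neural retina held more receptor RNA per 10000 UMIs than the outer coats of the eye in both sections. The summed level was 9.40 UMIs per 10000 in neural retina spots of either animal. In the RPE, choroid and sclera spots together it was 3.11 in NHP1 and 1.52 in NHP2. The ratio was thus 3.03 (95% interval 2.47 to 3.74) in NHP1 and 6.17 (4.40 to 8.91) in NHP2, and in both sections the intervals lay above 1. Per spot the ratio was 9.07 in NHP1 and 63.5 in NHP2. Fewer cells of a type and less RNA per cell cannot be told apart in such sums. Of the 16 receptor genes with at least 10 UMIs over both sides in NHP1, 11 were at least 2-fold higher in the neural retina, where 14.4% of the 9200 genes compared were, and none was 2-fold lower, where 12.3% were. In NHP2 it was 10 of 11, against 25.0% of 8074 genes, and 0 of 11 were lower, against 15.5%. The median ratio was 3.01 for receptor genes and 1.14 for all genes in NHP1, and 3.50 and 1.25 in NHP2, with a side at 0 UMIs entered at 3 UMIs.

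Within the neural retina the receptor genes were concentrated in the inner layers. In NHP1 the summed level was 11.6 UMIs per 10000 in the ganglion cell layer, 12.8 in the inner nuclear layer and 5.13 in the photoreceptor layer. In NHP2 it was 11.1, 12.9 and 3.20. The inner retina, that is both inner layers together, stood 2.37-fold (2.05 to 2.76) above the photoreceptor layer in NHP1 and 3.74-fold (2.80 to 5.08) in NHP2, where it was 7.78 per spot. The 2 inner layers did not differ beyond counting error, with a ratio of ganglion cell to inner nuclear layer of 0.912 (0.794 to 1.05) in NHP1 and 0.863 (0.716 to 1.04) in NHP2. Of the receptor genes compared, 12 of 15 in NHP1 and 10 of 11 in NHP2 were at least 2-fold higher in the inner retina, against 14.6% of 8504 and 17.8% of 7069 genes overall. None was 2-fold lower, against 9.37% and 14.2%. With clusters found by the Leiden method in place of the marker rule, the count in NHP1 was 4 and the summed ratio 1.37, and GABRR1 turned to 0.607. None of those NHP1 clusters was led by inner nuclear markers. These values thus set ganglion cell clusters alone against photoreceptor clusters, and the inner nuclear spots went to other clusters. The exceptions to the 2-fold difference under the marker rule in NHP1 included GRIA2 at 1.75 (1.18 to 2.64) and GABRR3 at 1.05 (0.448 to 2.59). In NHP2 the exception was GLRA2, with 13 UMIs in the inner retina and 0 in the photoreceptor layer, which is at least 1.79-fold higher.

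**Figure D2:**
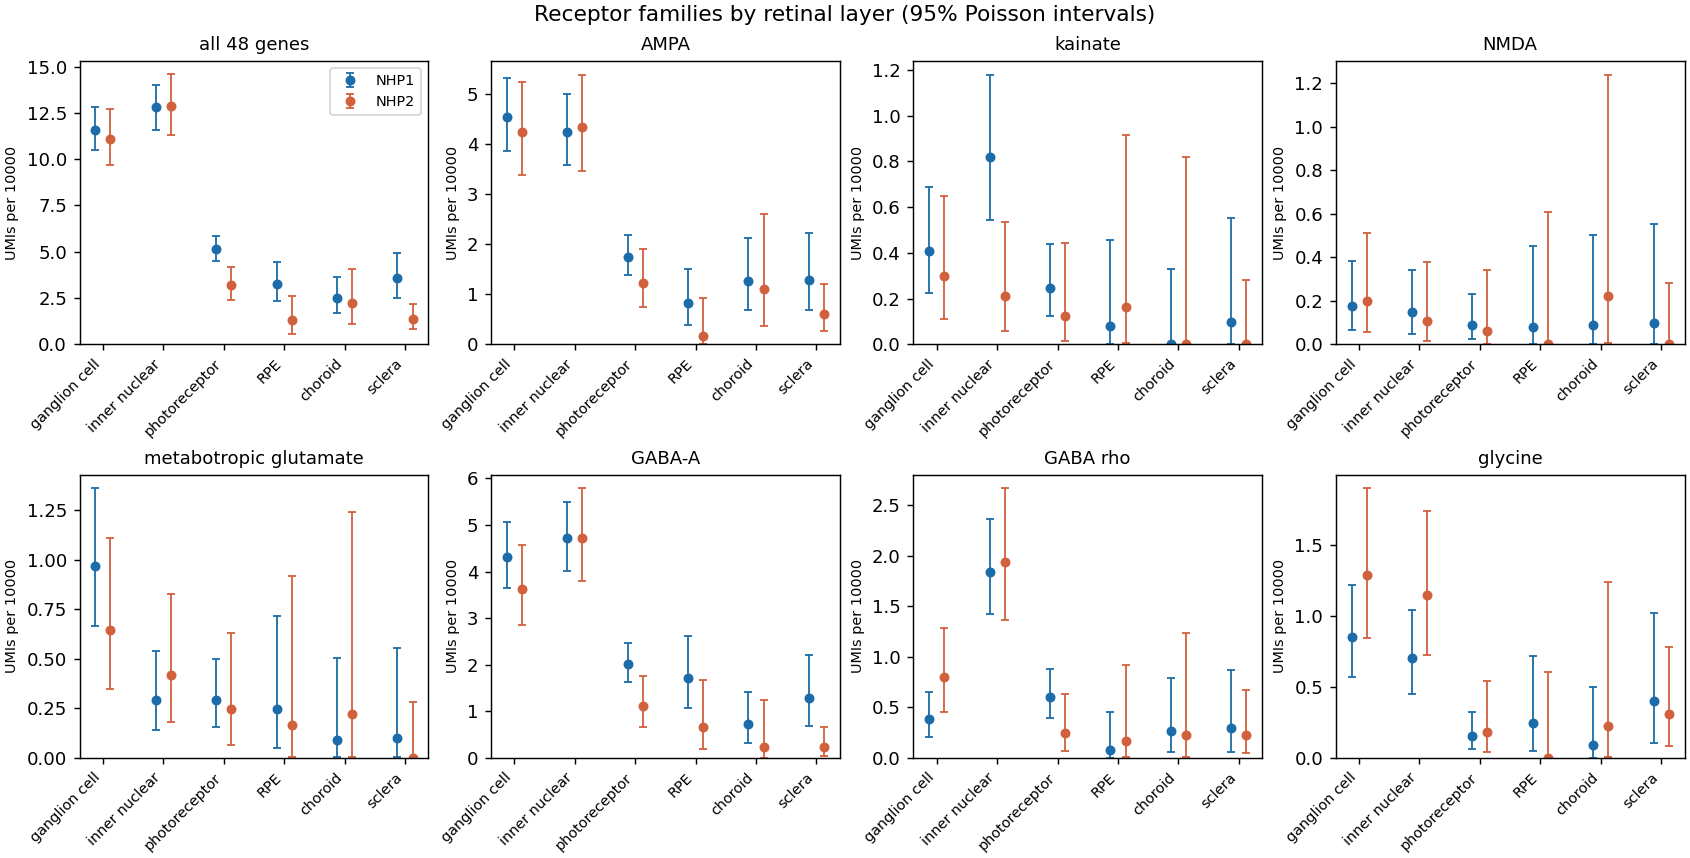
UMIs per 10000 of all 48 genes and of each family by layer in NHP1 (blue) and NHP2 (orange), where bars are 95% Poisson intervals. AMPA and GABA-A genes stand at like levels in both inner layers, whereas the GABA rho genes peak in the inner nuclear layer at 1.84 and 1.94.

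The ganglion cell and inner nuclear layers were most unlike in the GABA rho, metabotropic glutamate and kainate genes. The GABA rho genes were lower in the ganglion cell layer, at 0.381 UMIs per 10000 against 1.84 in NHP1 and at 0.797 against 1.94 in NHP2. The ratio was 0.207 (0.104 to 0.380) and 0.411 (0.214 to 0.758). They made up 14.4% (exact binomial interval 11.3 to 18.1) of the receptor UMIs of the inner nuclear layer and 3.27% (1.75 to 5.53) of those of the ganglion cell layer in NHP1. In NHP2 they held 37 of 246 receptor UMIs in the inner nuclear and 16 of 223 in the ganglion cell layer. The metabotropic glutamate genes leaned the other way, with a ratio of 3.31 (1.59 to 7.52) in NHP1 and of 1.55 (0.594 to 4.30) in NHP2, where the interval included 1. The kainate genes were at 0.501 (0.244 to 0.984) in NHP1 and at 1.43 (0.338 to 6.88) in NHP2 on 6 and 4 UMIs. By single genes, 1 of 14 (7.14%), GRM3, was at least 2-fold higher in the ganglion cell layer of NHP1, against 4.93% of 7507 genes. Lower were 3 (21.4%), namely GABRR1, GABRR3 and GRIK1, against 10.6%. With 14 genes compared, neither count is read as an excess over that background. In NHP2 0 of 11 were higher and 1, GABRR1, was lower, against 6.39% and 19.7% of 6178 genes, so that there the count was not above the background. These counts moved with the choice of spots. With spots clear of a cut 3 genes were higher in NHP1 and 3 lower in NHP2. With Leiden regions 2 were higher and 0 lower in NHP2. No region there was led by photoreceptor markers, and the inner nuclear region held 45 spots, against 16 under the marker rule.

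The bases upstream of the 4 genes that passed the 2-fold limit between these layers in NHP1 are shown, of which GABRR3 passed it on few UMIs and with an interval that included 1. Each sequence is the stretch of 250 bases before the annotated RefSeq gene start on Mmul_10, 5′ to 3′ on the strand of the gene. Capitals mark matches to TAATCC on either strand, the core bound by the retinal homeodomain factors OTX2 and CRX.
GABRR1, chr4:84188623-84188872, plus strand: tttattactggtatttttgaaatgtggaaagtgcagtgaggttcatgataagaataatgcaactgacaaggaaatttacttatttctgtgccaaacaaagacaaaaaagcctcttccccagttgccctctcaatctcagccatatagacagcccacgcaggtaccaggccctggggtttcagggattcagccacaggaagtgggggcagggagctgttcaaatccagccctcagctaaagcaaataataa
GABRR3, chr2:177896156-177896405, plus strand: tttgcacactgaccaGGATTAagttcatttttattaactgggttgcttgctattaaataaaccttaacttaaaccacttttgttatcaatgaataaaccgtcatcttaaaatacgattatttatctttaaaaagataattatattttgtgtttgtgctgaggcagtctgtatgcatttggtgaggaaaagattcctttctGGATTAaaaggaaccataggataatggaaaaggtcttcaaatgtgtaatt
GRIK1, chr3:16728924-16729173, plus strand: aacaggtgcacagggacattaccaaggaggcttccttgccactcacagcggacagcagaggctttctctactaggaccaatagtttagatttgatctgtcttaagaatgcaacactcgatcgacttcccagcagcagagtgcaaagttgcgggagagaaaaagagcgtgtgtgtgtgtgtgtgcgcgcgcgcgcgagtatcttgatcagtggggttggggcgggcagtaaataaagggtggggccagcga
GRM3, chr3:119495206-119495455, minus strand: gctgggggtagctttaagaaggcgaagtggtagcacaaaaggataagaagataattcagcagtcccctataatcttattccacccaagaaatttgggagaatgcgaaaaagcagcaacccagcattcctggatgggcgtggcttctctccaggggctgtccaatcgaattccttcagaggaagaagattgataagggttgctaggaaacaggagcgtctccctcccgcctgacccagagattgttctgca
GABRR3 held 2 matches and the other three held none, while 9.28% of 20755 promoters of coding genes and 4 of the 48 receptor promoters (8.33%) held at least 1. None of the 4 held the E-boxes CAGCTG or CAGATG, which 12.0% and 10.6% of all promoters held. A match describes the letters of this window and no binding. The GC content was 44.4% for GABRR1, 30.4% for GABRR3, 53.2% for GRIK1 and 49.2% for GRM3. Its median was 48.6% over the 14 receptor genes with at least 20 UMIs, 61.6% over the 17 at 0 UMIs and 57.2% over all coding genes.

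GABRR1 (ENSMMUG00000014943) encodes the rho1 subunit, which can form GABA channels by itself. In NHP1 it had 51 UMIs in the inner nuclear layer, 8 in the ganglion cell layer and 17 in the photoreceptor layer, or 1.49, 0.234 and 0.379 UMIs per 10000. In NHP2 it had 28, 11 and 2 UMIs, or 1.46, 0.548 and 0.123 per 10000. The inner nuclear level was nearly the same in both animals, and every other layer of its section was lower. The ratio of ganglion cell to inner nuclear layer was 0.157 (0.0644 to 0.334) in NHP1 and 0.374 (0.168 to 0.775) in NHP2. With the Leiden regions of NHP2 it was 0.705, where the inner nuclear region held 45 spots against the 16 of the marker rule. The 51 UMIs lay in 26 of 66 spots and the 28 UMIs in 9 of 16. Bipolar cell markers, summed over the 5 of 6 listed genes in the files, moved the same way. They stood at 15.7 UMIs per 10000 in the inner nuclear and 5.36 in the ganglion cell layer of NHP1 and at 10.6 and 6.82 in NHP2. So did the horizontal cell, Müller glia, rod, cone and astrocyte lists in both animals, with rods at 11.7 and 5.38 in NHP2. The amacrine cell list alone stood higher in the ganglion cell layer, at 7.50 against 7.17 in NHP1 and 8.91 against 7.64 in NHP2. The bipolar genes helped to set the layers, and the part of any of these cell types in the result was not tested.

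GABRR3 (ENSMMUG00000005977), the rho3 subunit gene, had 11 UMIs in the inner nuclear, 5 in the ganglion cell and 10 in the photoreceptor layer of NHP1, and 9, 5 and 2 in NHP2. Its ratio of ganglion cell to inner nuclear layer was 0.455 (0.124 to 1.42) in NHP1 and 0.529 (0.139 to 1.76) in NHP2, so the counting error did not separate the layers. GABRR2, the third rho gene, had 1 UMI in all. It lies beside GABRR1 on chromosome 4 within 137 kb, and the neighbours thus differed by 129 UMIs to 1.

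**Figure D3:**
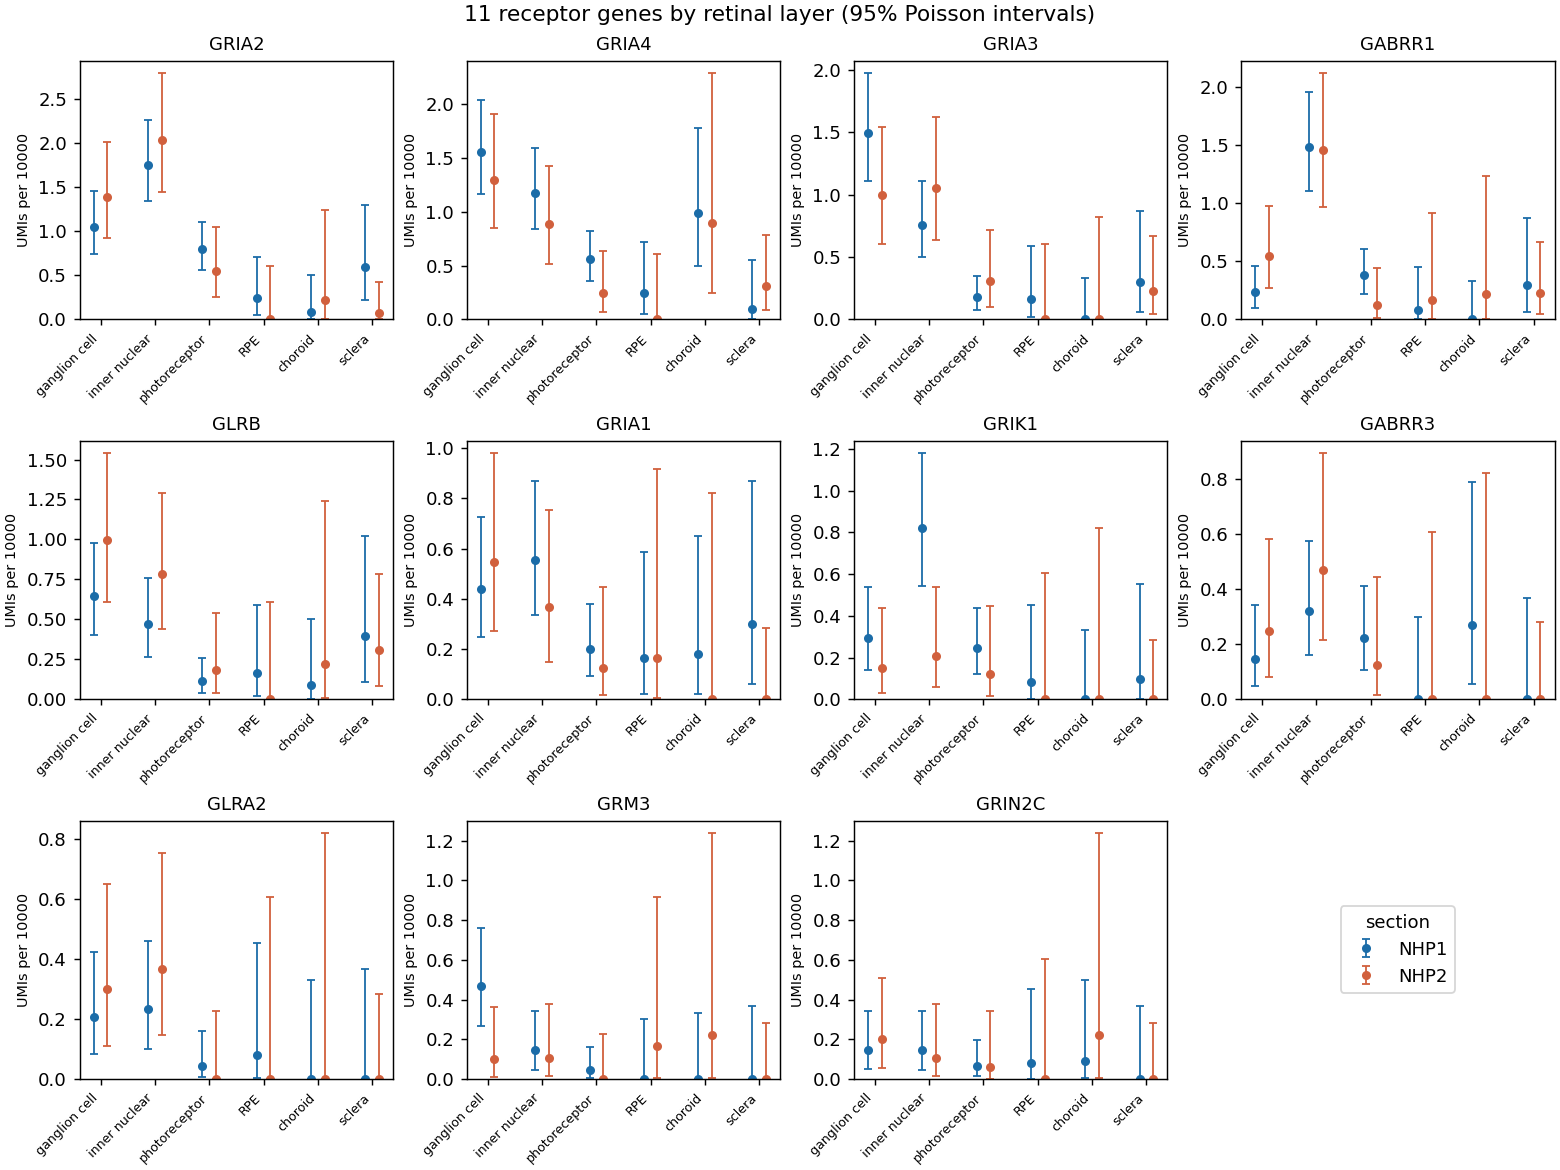
UMIs per 10000 of 11 receptor genes with at least 20 UMIs, by layer, in NHP1 (blue) and NHP2 (orange), with 95% Poisson intervals. GABRR1 peaks in the inner nuclear layer of both animals at 1.49 and 1.46, GRIK1 is at 0.819 there in NHP1 and at 0.209 in NHP2, and GRIA4 is at 0.988 and 0.890 in the choroid.

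The 16 GABA-A genes, whose subunits combine into the common synaptic receptor, are described by their sum. They held 445 UMIs in the tissue of NHP1 and 192 in that of NHP2, the most of any family in NHP1. In NHP1 their summed level was 4.31 UMIs per 10000 in the ganglion cell layer, 4.71 in the inner nuclear layer and 2.01 in the photoreceptor layer. In NHP2 it was 3.63, 4.71 and 1.11. The inner layers did not separate, with ratios of 0.915 (0.727 to 1.15) and 0.772 (0.559 to 1.06), whereas the inner retina stood 2.24-fold (1.77 to 2.87) and 3.75-fold (2.30 to 6.49) above the photoreceptor layer. Against the outer coats the neural retina was 2.81-fold (2.04 to 3.95) higher in NHP1 and 9.65-fold (4.79 to 22.7) higher in NHP2. Off tissue the family stood at 2.20 UMIs per 10000 in NHP1 and 1.69 in NHP2.

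Among the scarce GABA-A genes GABRA6 had 3 UMIs in each section, GABRB1 had 2 UMIs in NHP2, and GABRA3, GABRB2, GABRD and GABRG3 had 1 each, while 7 had none. On chromosome 5, GABRG1 and GABRA2 lie within 368 kb and GABRA4 and GABRB1 within 522 kb, with no other coding gene inside either pair, and these 4 genes held 2 UMIs in all. The tables do not show how well the transcript end of each gene was annotated.

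All 4 AMPA receptor genes were measured. GRIA2, whose subunit makes the channel poorly permeable to calcium, had 143 UMIs in NHP1 and 79 in NHP2. Its levels in the ganglion cell, inner nuclear and photoreceptor layers were 1.05, 1.75 and 0.804 UMIs per 10000 in NHP1 and 1.39, 2.04 and 0.554 in NHP2. In both animals it was highest in the inner nuclear layer, with a ratio of ganglion cell to inner nuclear layer of 0.601 (0.386 to 0.924) in NHP1 and 0.683 (0.405 to 1.14) in NHP2. Moran's I, the deposited score of spatial clustering, was 0.0583 for GRIA2 in NHP1, rank 1108 of 13804 genes, and 0.0805 in NHP2, rank 537 of 12542. The ranks varied among the receptor genes. GRIA3 was at 631 in NHP1 and 3538 in NHP2, GABRR1 at 4081 and 3664, GRIA4 at 1299 and 11831, and GLRB at 9881 and 7963.

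GRIA4 leaned towards the ganglion cell layer in both animals, at 1.55 against 1.17 UMIs per 10000 in NHP1 and 1.29 against 0.889 in NHP2, but the intervals of the ratios, 1.33 (0.864 to 2.05) and 1.46 (0.760 to 2.86), included 1. It was also the AMPA gene with the most UMIs in the choroid, 11 in 8 spots of NHP1 and 4 in 4 spots of NHP2, or 0.988 (0.493 to 1.77) and 0.890 (0.242 to 2.28) per 10000. Those levels were near that of the inner nuclear layer, and above the 0.558 and 0.246 of the photoreceptor layer. Spots off tissue held GRIA4 at 0.822 (0.595 to 1.11) in NHP1 and at 0.260 (0.0315 to 0.939) in NHP2, and the part of such RNA in the choroid levels was not tested. In the choroid GRIA1, GRIA2 and GRIA3 together had 3 UMIs in NHP1 and 1 in NHP2.

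GRIA3 was higher in the ganglion cell layer of NHP1, with 51 UMIs against 26 and a ratio of 1.97 (1.20 to 3.28). In NHP2 it had 20 UMIs in each of these layers, a ratio of 0.952 (0.486 to 1.86). It had 8 UMIs in the photoreceptor layer of NHP1, a ratio of inner retina to photoreceptor layer of 6.31 (3.05 to 15.1), the highest of the AMPA genes there, against 3.31 (1.31 to 10.8) in NHP2. GRIA1 had 50 and 21 UMIs, of which 15 and 19 lay in the ganglion cell and inner nuclear layers of NHP1 and 11 and 7 in those of NHP2, which did not separate the layers in either animal.

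The mix of AMPA subunit genes differed between the inner layers of NHP1 beyond the counting intervals. There GRIA3 made up 32.9% (25.6 to 40.9) of AMPA UMIs in the ganglion cell layer and 17.9% (12.1 to 25.2) in the inner nuclear layer, and GRIA2 made up 23.2% (16.8 to 30.7) and 41.4% (33.3 to 49.8). In NHP2 the share of GRIA2 was 32.9% (23.1 to 44.0) and 47.0% (35.9 to 58.3), and that of GRIA3 was 23.5% and 24.1%, or 20 of 85 and 20 of 83 UMIs. The lower share of GRIA2 in the ganglion cell layer was thus seen in both animals, with intervals that overlapped in NHP2, and the higher share of GRIA3 in NHP1 alone.

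Of the kainate receptor genes GRIK1 was the main one, a subunit gene known from OFF bipolar cells. In NHP1 it had 51 UMIs, of which 28 lay in the inner nuclear, 10 in the ganglion cell and 11 in the photoreceptor layer, a ganglion cell to inner nuclear ratio of 0.358 (0.155 to 0.759). In NHP2 it had 9 UMIs, 4, 3 and 2 in the same layers, too few to compare. Its level in the inner retina was 0.556 UMIs per 10000 in NHP1 and 0.179 in NHP2, a ratio of NHP2 to NHP1 of 0.321 (0.121 to 0.728). Moran's I of GRIK1 was 0.0426 in NHP1, rank 1780 of 13804, and 0.0896 in NHP2, rank 415 of 12542. The NHP2 score rests on 9 UMIs, and GRM8, with 7 UMIs, ranked 248 there. GRIK4 had 3 and 4 UMIs and GRIK5 had 1.

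NMDA receptor genes were scarce, with 19 UMIs in NHP1 and 8 in NHP2. GRIN2C, a regulatory subunit gene, accounted for 15 and 8 of them, 5 in each inner layer of NHP1 and 4 and 2 in the ganglion cell and inner nuclear layers of NHP2. GRIN1, the subunit that every NMDA receptor needs, had 1 UMI, GRIN2A had 2 and GRIN3A had 1. Counts of the obligatory and the regulatory subunit were thus far apart, and whether this reflects the cells or the capture of the transcript ends was not tested.

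Among the metabotropic genes GRM3, an inhibitory receptor of the group that also holds GRM2, was the only one with at least 20 UMIs. It had 16 UMIs in the ganglion cell, 5 in the inner nuclear and 2 in the photoreceptor layer of NHP1 and none in its outer coats, a ganglion cell to inner nuclear ratio of 3.21 (1.12 to 11.2). In NHP2 the counts were 2, 2 and 0, with 1 UMI in the RPE and 1 in the choroid. GRM4, a presynaptic receptor, had 8 UMIs in NHP1 of which 7 lay in the ganglion cell layer and 0 in the inner nuclear layer, and 3 in NHP2 of which 2 lay in the ganglion cell layer, too few to compare. GRM2 had 10 and 5 UMIs, and GRM8 had 6 and 7. These 3 genes lie below the naming minimum and were singled out after their values had been seen.

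GRM6, the receptor of ON bipolar cells, had 2 UMIs in NHP1 and 0 in NHP2. Of the 11 genes of its cascade that were read, 5 reached a comparison of inner retina with photoreceptor layer in NHP1 and 4 in NHP2. TRPM1, the channel that the cascade closes, had 6 and 3 UMIs, LRIT3 had 1 and 0, and NYX and GPR179 had 0. The G protein gene GNAO1 had 200 and 79 UMIs and was 3.43-fold (2.31 to 5.26) and 7.56-fold (2.83 to 28.5) higher in the inner retina than in the photoreceptor layer. GNB3, which cone phototransduction also uses, had 1317 and 409 UMIs and was higher in photoreceptor spots, with ratios of inner retina to photoreceptor layer of 0.366 (0.323 to 0.415) and 0.272 (0.219 to 0.338). GNB5 and RGS7, which build the complex that ends the G protein signal, had 874 and 51 UMIs in NHP1 and 449 and 23 in NHP2. The receptor, the channel and the proteins that hold them together were thus near or at 0 in both sections. GNAO1, GNB3 and GNB5, which other retinal cells also use, were far more abundant.

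The glycine receptor genes were represented by GLRB and GLRA2, the beta subunit that anchors the receptor at synapses and an alpha subunit. GLRB had 50 UMIs in NHP1 and 44 in NHP2. It stood at 0.645, 0.468 and 0.112 UMIs per 10000 in the ganglion cell, inner nuclear and photoreceptor layers of NHP1 and at 0.996, 0.785 and 0.185 in those of NHP2. GLRA2 had 7, 8 and 2 UMIs in these layers of NHP1 and 6, 7 and 0 in NHP2. Neither gene separated the inner layers in either animal, with ratios of 1.38 (0.691 to 2.81) and 1.27 (0.617 to 2.66) for GLRB and of 0.877 (0.271 to 2.77) and 0.816 (0.226 to 2.83) for GLRA2. As a family they were 4.96-fold (2.25 to 12.9) and 6.63-fold (2.14 to 33.3) higher in the inner retina than in the photoreceptor layer.

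**Figure D4:**
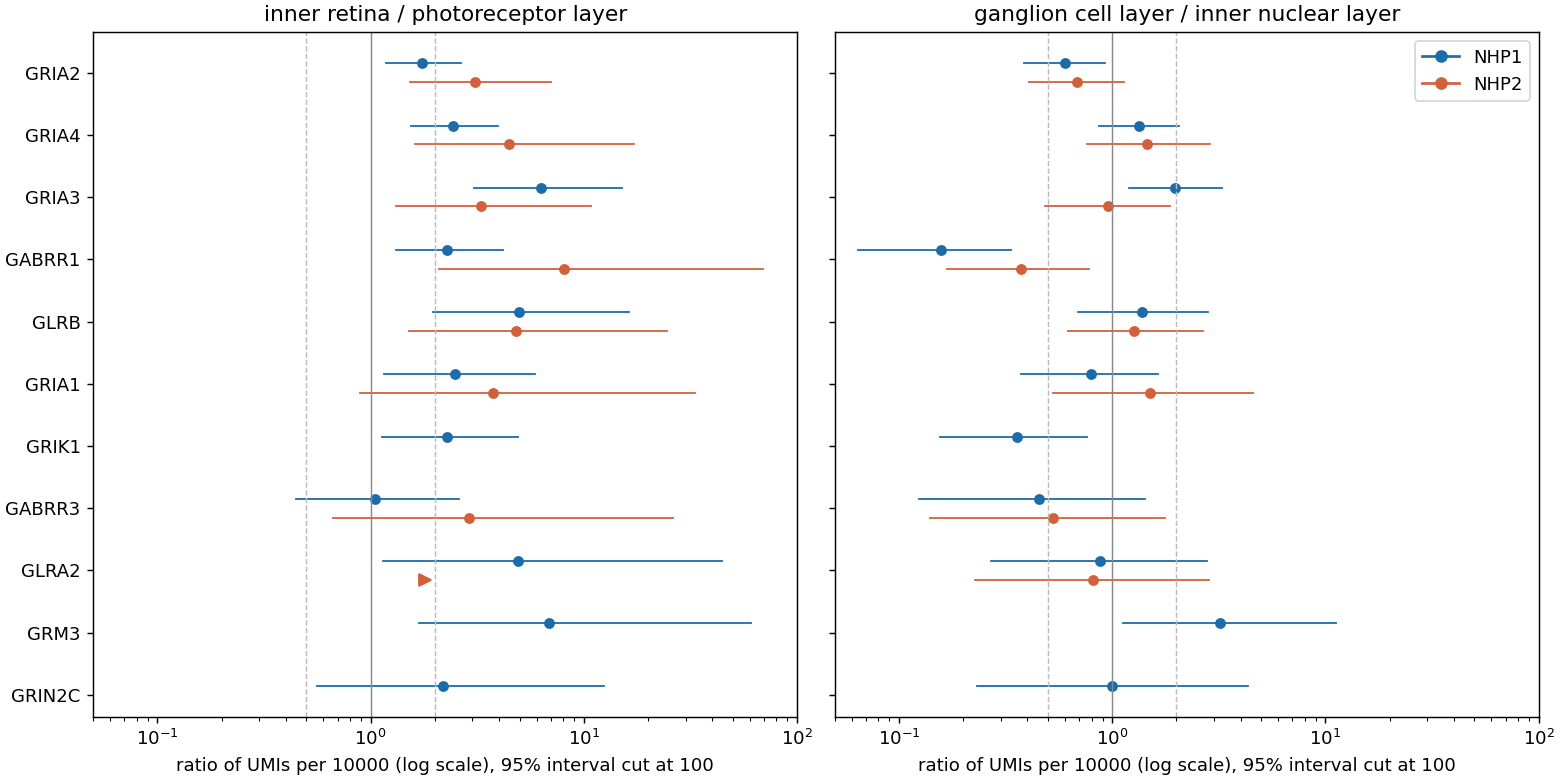
Ratios of UMIs per 10000 on a log axis for the same 11 receptor genes where they had at least 10 UMIs in the comparison, with 95% intervals cut at 100, a lower bound as an arrow head, and dashed lines at 2-fold. In the left panel most points lie right of 1, and in the right panel only GABRR1 lies left of 0.5 in both animals, at 0.157 and 0.374.

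A further 63 genes, which serve the release and uptake of these transmitters or the anchoring and signalling of their receptors, were read in the same way. In the inner retina against the photoreceptor layer, 19 of the 31 compared were at least 2-fold higher and 2 lower in NHP1, and 13 of 26 were higher and 3 lower in NHP2. Between the ganglion cell and inner nuclear layers 2 were higher and 3 lower of 29 in NHP1, and 2 were higher and 3 lower of 24 in NHP2. Of all genes 4.93% were higher and 10.6% lower in NHP1, and 6.39% and 19.7% in NHP2, so these counts lay near or below the background. In the neural retina against the outer coats 13 of 31 and 16 of 26 were higher and none lower. Between the animals, 0 were higher and 4 lower in the inner retina of NHP2 among 30 compared, SLC17A7 among them at 0.470 (0.352 to 0.621). For all genes the shares between the animals were 5.73% higher and 7.23% lower, and the remaining shares are those given above for the same comparisons. Between inner retina and photoreceptor layer the genes of transmitter uptake were the most even group, with 6 of 6 compared higher in the inner retina of NHP1 and 5 of 6 in NHP2. Among them SLC1A3, the glutamate transporter of Müller glia, had ratios of 2.06 and 3.53, and GLUL, which turns glutamate into glutamine, had ratios of 2.45 and 2.68. Against the outer coats 3 of 6 uptake genes were higher in the neural retina of NHP1 and 2 of 6 in NHP2.

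Of the vesicular glutamate transporters SLC17A6 and SLC17A7 differed between the inner layers in both animals, and SLC17A8 did so in neither. SLC17A6, used by ganglion cells, had 106 UMIs in the ganglion cell and 32 in the inner nuclear layer of NHP1 and 56 and 8 in NHP2, ratios of 3.32 (2.22 to 5.10) and 6.66 (3.16 to 16.2). SLC17A7, used by photoreceptors and bipolar cells, went the other way at 0.370 (0.274 to 0.495) and 0.238 (0.119 to 0.443), and reached 6.00 and 6.04 UMIs per 10000 in the photoreceptor layer. SLC17A8, the scarcest of them, had ratios of 0.701 (0.227 to 2.04) and 1.52 (0.439 to 5.92). On the inhibitory side SLC32A1, which loads GABA and glycine into vesicles, had 99 and 57 UMIs, and GAD1, which makes GABA, was 7.10-fold (3.09 to 20.1) and 14.9-fold (2.51 to 605) higher in the inner retina than in the photoreceptor layer. CACNG3, an auxiliary subunit of AMPA receptors, had 80 UMIs in the inner retina and 15 in the photoreceptor layer of NHP1, and 39 and 2 in NHP2, ratios of 3.50 and 8.08. NETO1, an auxiliary subunit of kainate receptors, had 13 UMIs in the inner nuclear and 4 in the ganglion cell layer of NHP1, a ratio of 0.308 (0.0732 to 0.998) beside the 0.358 of GRIK1, and 2 and 0 UMIs in NHP2. GABBR1, a subunit of the metabotropic GABA receptor, had 121 and 76 UMIs, whereas its obligate partner GABBR2 had 1 and 0.

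Between the animals, the summed level in the inner retina did not differ beyond counting error, at 12.0 UMIs per 10000 in NHP2 and 12.2 in NHP1, a ratio of 0.981 (0.874 to 1.10). Of 15 genes compared, 1 (6.67%) was at least 2-fold higher in NHP2 and 2 (13.3%) were lower, against 5.73% and 7.23% of 8460 genes. With 15 genes compared, neither count is read as an excess over that background. Per spot in place of per 10000 UMIs the summed ratio was 2.66, with 12 genes higher and 0 lower, on spots that held a median of 9372 and 7920 UMIs in the ganglion cell and inner nuclear layers of NHP2 against 3167 and 3904.5 in NHP1. The lower genes were GRIK1 and GRM3, the latter with 4 UMIs against 21 and a ratio of 0.332 (0.0829 to 0.984). The higher one was GRM8, with 7 UMIs against 5 and a ratio of 2.44 (0.667 to 9.75). Without the 5 spots richest in receptor UMIs in each section the GRM8 ratio was 0.604, so that it rested on those spots. The glycine genes were at 1.58 (1.05 to 2.38) and the kainate genes at 0.415 (0.186 to 0.840), and the other families had intervals that included 1. The inner retina of NHP2 was read from 13 ganglion cell and 16 inner nuclear spots against 71 and 66 in NHP1, so that the levels of NHP2 rest on few places.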

How the data were processed

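Each table held raw counts of UMIs by gene and spot as deposited, made with Space Ranger 2.1.0 per the file header against Mmul_10 with vector sequences added, together with spot positions marked for tissue. The authors also deposited Moran's I, a score of spatial clustering that Space Ranger computes per gene, whereas its p-values were not used. The punches for sectioning were frozen in embedding compound per the study's methods and sample descriptions, although a protocol field of the labels names paraformaldehyde. Reads came from the 3′ ends of polyadenylated RNA, so that a count is a molecule and was not divided by gene length.

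The genes were matched by symbol. The members, the layer lists (110 of 114 genes in the files) and the other pathway genes were chosen with earlier results of these data known. The layer of a spot was the list with the highest log2 of its UMIs over those expected from the section, with a pseudocount of 1, if at least 3 UMIs of it were present, and a spot was near a cut if the next list lay within 0.5. The rule for names took receptor genes with a tissue sum of 20 UMIs or more, those at 0, and other pathway genes by the same minimum. Scarcer receptor genes, scarce members of the GRM6 cascade and GABBR2 were named after their values were seen. Some receptor genes that the rule takes are not reported here by name, though they stay in the sums and counts. UMIs were summed per layer, divided by the layer total and compared as ratios where both sides together held 10 UMIs or more, with 2-fold as the limit. A side at 0 UMIs was entered at 3 UMIs, which makes the ratio a bound. Intervals are exact at 95%, Poisson for levels, Clopper-Pearson for shares and conditional binomial for ratios. Python 3.11.15, numpy 2.4.6, scipy 1.17.1, pandas 2.3.3, scanpy 1.11.5 and leidenalg 0.10.2 were used, and the ratio rule was tested on simulated data. The capture areas shared 4341 spot barcodes, which are fixed by the slide design and mark positions, not cells. All 48 genes matched the RefSeq annotation of Mmul_10 by symbol, from which gene places and the bases before each gene start were taken. No doublet caller was run, since a spot can hold several cells.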

Additional observations from a re-analysis of the deposited data

Results flagged for a closer look

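Receptor UMIs were also found in spots off tissue, which none of the layer comparisons used, above the limit that a count of 0 allows. In NHP1 they stood at 6.39 UMIs per 10000 (5.66 to 7.20) within 3 spot spacings of tissue and at 7.35 (5.76 to 9.24) farther away, against 7.93 in tissue. In NHP2 they stood at 5.41 (3.70 to 7.63) and 10.7 (6.46 to 16.8), against 7.07. Per spot they were far scarcer, 0.221 and 0.0239 UMIs in NHP1 and 0.0578 and 0.00547 in NHP2, against 2.20 and 1.21 in tissue. GABRR1 had 25 UMIs off tissue in NHP1 and 2 in NHP2. The levels in RPE, choroid and sclera, between 1.31 and 3.57 UMIs per 10000, lay below those off tissue. The photoreceptor layer was likewise lower, NHP1 standing at 5.13 UMIs per 10000 (4.49 to 5.84) and NHP2 at 3.20 (2.39 to 4.20). Its interval overlapped that of the off-tissue spots within 3 spot spacings of tissue in either animal. What part of the levels in these layers came from RNA that had moved across the slide was not tested.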

How the results depend on the processing

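The comparisons were recomputed in 6 other ways, with Leiden regions in place of the marker rule, spots clear of a cut, a minimum of 500 UMIs per spot, scaling without mitochondrial and the 50 most abundant genes, with the 5 spots left out that held the most receptor UMIs, and a minimum of 20 UMIs per gene. UMIs per spot were added after the data had been seen. Of the summed ratios and counts, 120 values stayed within the interval of the main value or within 1.5 times its count, and 21 did not. With Leiden regions the inner retina stood 1.37-fold above the photoreceptor layer in NHP1, with 4 genes at least 2-fold higher, GABRR1 turned to 0.607 and GRIN2C to 0.947. None of the NHP1 regions there was led by inner nuclear markers, and the inner nuclear spots went to other regions. In NHP2 no region was led by photoreceptor markers. Its inner nuclear region held 45 spots and 551581 UMIs, against 16 spots and 191130 UMIs under the marker rule. The ganglion cell region, of 19094 UMIs, shared 4 spots with the 13 of the marker rule. The ratio of ganglion cell to inner nuclear region was 1.08, with 2 genes higher and 0 lower. NHP2 over NHP1 was 0.873 with 0 genes higher. These Leiden values thus do not compare the layers of the marker rule. The comparisons that need an inner nuclear region in NHP1 or a photoreceptor region in NHP2 had no Leiden value. With spots clear of a cut, the inner retina of NHP1 stood 3.17-fold above the photoreceptor layer, 3 genes were higher in its ganglion cell layer, and 3 were lower in that of NHP2. The other scaling gave 2 genes higher in the ganglion cell layer of NHP1. Leaving out the 5 spots or asking for 20 UMIs left 0 genes higher in NHP2 than NHP1, and without those spots GRM8 turned to 0.604. Per spot, neural retina over outer coats was 9.07 in NHP1 and 63.5 in NHP2, inner retina over photoreceptor layer was 3.17 and 7.78, ganglion cell over inner nuclear layer in NHP2 was 1.12, and NHP2 over NHP1 was 2.66, with 12 genes higher and 0 lower and the kainate genes turned to 1.12. The ratio of GABRR1 between the inner layers ranged from 0.145 to 0.171 in NHP1 and from 0.313 to 0.705 in NHP2. The last was between Leiden regions that were not the layers of the marker rule. No paired analysis was possible because each animal gave 1 section and the number 1 that they share is no pairing. Genes below 10 UMIs and all layers of NHP2 are limited by depth.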
